A study of Mus musculus with 2 samples.

Results

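The solute carriers that bring sugars, lactate, amino acids, creatine, taurine, fatty acids, inositol and vitamins into cells were examined in gastrocnemius, the large calf muscle. Members were all genes whose symbol begins with Slc1a, Slc2a, Slc3a, Slc5a, Slc6a, Slc7a, Slc16a, Slc27a, Slc38a or Slc43a followed by a number and that have at least 1 protein-coding transcript. This gave 105 of 55536 annotated genes, of 21901 with a protein-coding transcript. The rule itself uses no measured value. Another 2 symbols matched but had no coding transcript and were not members. One member, Slc7a6os, lies 2011 bases from the transporter gene Slc7a6, on the opposite strand. It is not itself a transporter, so family totals were taken over the other 104. Not every member works at the cell surface: Slc38a7 and Slc38a9 act at the lysosome and Slc2a8 is held inside the cell.

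The tissue came from male mice of strain B6CASTF1/J, a hybrid of C57BL/6J and CAST/EiJ, at an age of 14 days. The labels name no treatment, and both samples formed 1 group. There were 2 libraries, called replicate 1 and replicate 2, each from 300 ng of total RNA with synthetic ERCC RNAs added. Both carry the same donor identifier and the labels speak of 3 males, so it is not settled whether they came from different animals or from pools. Differences between them therefore measure only the spread between these 2 samples. Replicate 1 held 40825601 expected counts and replicate 2 held 37329025, and 3 counts corresponded to 0.0735 and 0.0804 CPM (counts scaled to the library total). All 5 muscle fibre markers checked (Ckm, Acta1, Mylpf, Myh4 and Des) were present, with summed levels of 81236 and 87369 TPM (transcript abundance relative to the whole table, corrected for length). The 5 epithelial and the 5 neuronal markers all stayed below 1 TPM.

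Muscle fibres take up fuels and building blocks through carriers with distinct jobs. Facilitated sugar carriers of the Slc2 family let glucose move down its gradient, and the insulin-responsive one, Slc2a4, is stored in vesicles that fuse with the membrane when the muscle contracts or insulin binds. Some carriers of the Slc16 family, among them Slc16a1 and Slc16a3, move lactate together with a proton. These 2 need the chaperone basigin to reach the membrane. Amino acids enter through sodium-coupled carriers (Slc38, Slc1), through exchangers of the Slc7 family that pair with the heavy chain Slc3a2, and through Slc43 carriers. Sodium- and chloride-coupled Slc6 carriers bring in creatine and taurine, which fibres store at high concentration, and Slc27 proteins trap fatty acids as they enter.

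Sequences upstream of the annotated starts are shown for 3 of the 4 highest members. No RefSeq window was found for the other, Slc2a4. Slc16a3 is shown as the highest member. Slc38a4 and Slc38a2 are shown because the RNA of Slc38a4 was divided among several starts while its chromosomal neighbour Slc38a2 has a single main one. Each line gives the 250 bases before a RefSeq start on GRCm38.p6, from 5′ to 3′ on the strand of the gene, with every CG dinucleotide in capitals.
Slc16a3, chr11:120948817-120949066, plus strand: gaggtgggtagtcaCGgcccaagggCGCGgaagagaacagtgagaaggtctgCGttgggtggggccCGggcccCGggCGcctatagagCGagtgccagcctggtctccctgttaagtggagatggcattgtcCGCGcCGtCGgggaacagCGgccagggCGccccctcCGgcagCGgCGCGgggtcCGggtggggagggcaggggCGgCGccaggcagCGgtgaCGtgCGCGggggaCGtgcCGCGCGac
Slc38a4 first start, chr15:97055957-97056206, minus strand: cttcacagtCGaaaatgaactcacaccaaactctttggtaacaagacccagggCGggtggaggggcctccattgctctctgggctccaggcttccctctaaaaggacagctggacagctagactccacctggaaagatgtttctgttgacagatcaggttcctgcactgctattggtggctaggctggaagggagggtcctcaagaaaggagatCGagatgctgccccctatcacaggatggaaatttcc
Slc38a4 middle start, chr15:97031214-97031463, minus strand: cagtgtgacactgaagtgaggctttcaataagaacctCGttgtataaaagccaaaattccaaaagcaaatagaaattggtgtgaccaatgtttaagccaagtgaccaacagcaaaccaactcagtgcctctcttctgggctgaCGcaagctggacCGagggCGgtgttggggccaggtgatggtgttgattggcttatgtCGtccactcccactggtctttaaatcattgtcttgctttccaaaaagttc
Slc38a4 last start, chr15:97020360-97020609, minus strand: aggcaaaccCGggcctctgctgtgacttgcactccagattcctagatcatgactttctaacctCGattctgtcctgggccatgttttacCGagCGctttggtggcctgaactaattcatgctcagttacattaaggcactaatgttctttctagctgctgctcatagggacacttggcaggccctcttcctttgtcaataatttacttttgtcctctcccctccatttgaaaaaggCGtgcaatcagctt
Slc38a2, chr15:96699729-96699978, minus strand: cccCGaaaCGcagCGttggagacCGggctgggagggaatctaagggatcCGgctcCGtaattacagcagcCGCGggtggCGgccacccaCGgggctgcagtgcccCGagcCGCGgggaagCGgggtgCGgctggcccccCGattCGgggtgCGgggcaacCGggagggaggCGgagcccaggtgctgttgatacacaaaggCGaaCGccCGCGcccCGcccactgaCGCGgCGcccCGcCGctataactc
The stretches before Slc16a3 and Slc38a2 held 29 and 30 CG dinucleotides, and those before the 3 RefSeq starts of Slc38a4 held 3, 5 and 5. First, middle and last name the windows shown, and other annotated transcripts of Slc38a4 begin elsewhere. CG reads the same on both strands. Over 32851 such windows of all genes the median was 6, with quartiles of 2 and 16. At least 29 occurred in 6.78% of windows, at least 30 in 5.94% and at least 5 in 55.6%. RefSeq windows were found for 76 of the 105 members, 101 windows in all. The median was 12 over the 41 windows of members that reached 1 TPM in both libraries and 6 over the 60 windows of the others. The last 14 bases shown for Slc16a3 fall in the first exon of its transcript 207.

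Of the 105 members, 38 reached 1 TPM in both libraries, 4 did so in 1 library and 63 in neither. That is 36.2% of members, against 49.5% of all genes with a protein-coding transcript. At the low end, 14 members had no count in either library, which allows up to 0.0735 and 0.0804 CPM, and 34 had at most 3 counts in each. The 104 transporters summed to 687 TPM in replicate 1 and 619 TPM in replicate 2 (653 ± 48.7; SD, n = 2). A small number of genes carried most of it. Slc16a3, Slc2a4, Slc38a4 and Slc38a2 together took 57.5 ± 0.134% of the transporter total (SD, n = 2). The Slc16 family, which holds lactate carriers and carriers of other cargo, took 29.4%. The amino acid family Slc38 took 28.0% and the sugar family Slc2 17.1%. The remaining families took 7.35% (Slc6), 5.25% (Slc7), 5.05% (Slc43), 3.75% (Slc27), 2.08% (Slc1), 1.63% (Slc3) and 0.446% (Slc5).

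**Figure D1:**
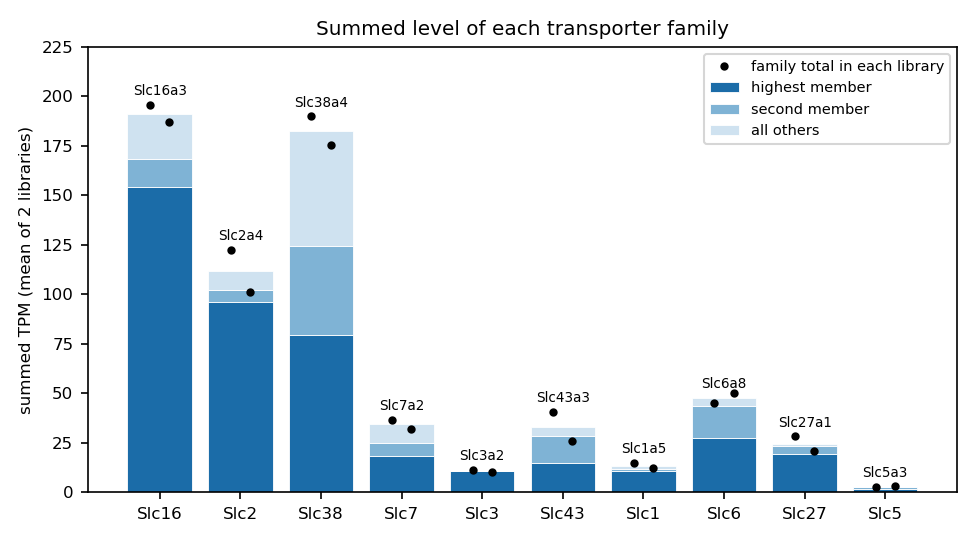
Summed TPM of each transporter family (vertical axis, mean of 2 libraries), with bars split into the highest member (named above the bar), the second member and all others. Black points are the family totals in replicate 1 (left) and replicate 2 (right). The Slc16, Slc38 and Slc2 bars are the tallest, and a single member fills most of the Slc16 and Slc2 bars.

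Among the 19 members that averaged at least 5 TPM, 18 neighbouring pairs can be formed by rank. In 7 of them both libraries of the higher gene lay above both libraries of the lower one, and in 11 the values of the neighbours overlapped. The first 5 ranks (Slc16a3, Slc2a4, Slc38a4, Slc38a2 and Slc6a8) were separated in this way. Below them Slc6a8, Slc38a10, Slc38a3, Slc27a1 and Slc7a2 overlapped, each with the next.

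**Figure D2:**
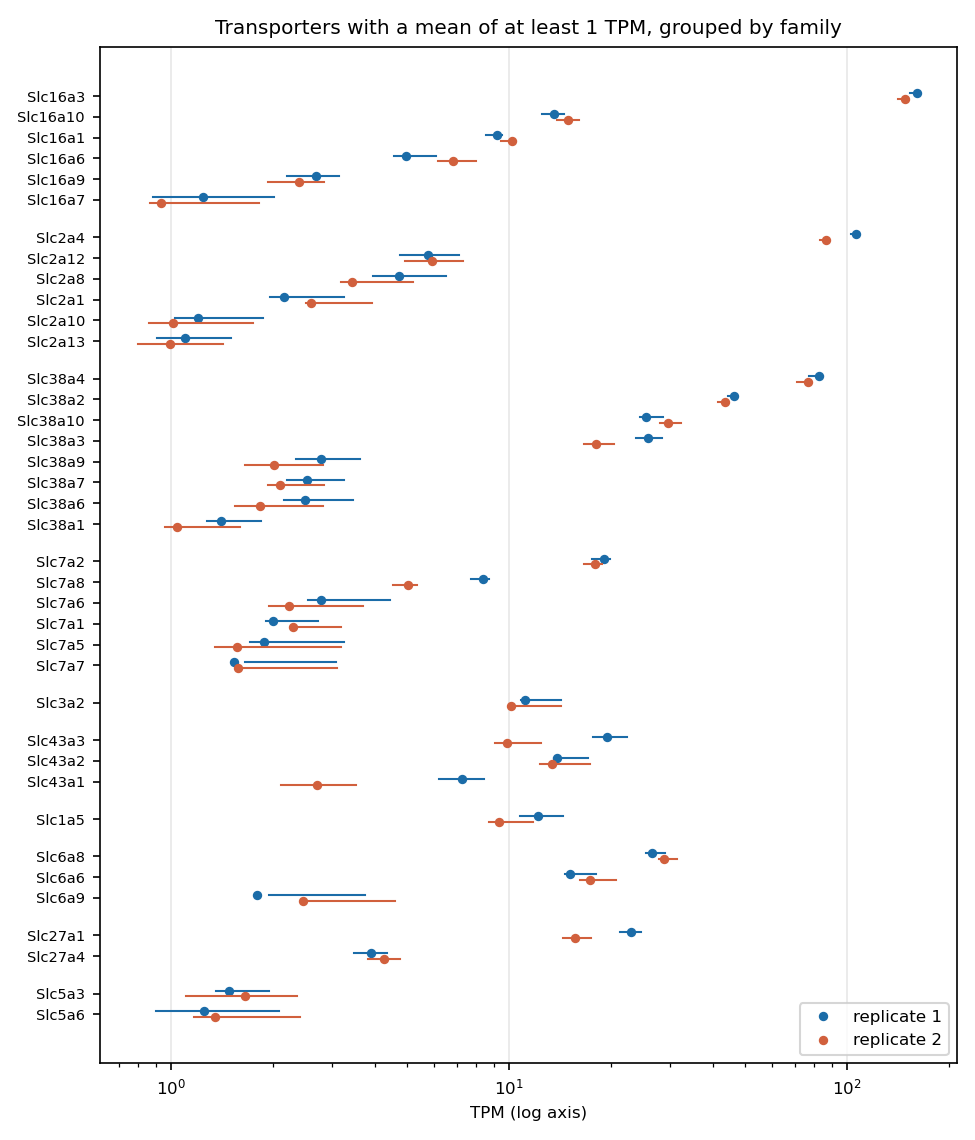
Level of transporters that averaged at least 1 TPM (horizontal log axis, TPM), grouped by family and ordered by mean level within it. Points are the values of the 2 libraries and bars are the intervals that the deposited gene table gives, which need not hold the point. Levels span from about 1 TPM to 160.3 TPM for Slc16a3 in replicate 1.

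The sugar carriers were led by one gene. Slc2a4, the insulin-responsive glucose transporter (ENSMUSG00000018566.14, chromosome 11, 69942539 to 69948188, GRCm38), stood at 106 TPM in replicate 1 and 86.5 TPM in replicate 2. It took 86.1 ± 1.02% of the Slc2 total (SD, n = 2). Slc2a12, another facilitated sugar carrier, followed with 5.77 and 5.90 TPM, so the rest of the family was far below. It overlaps Tbpl1 (7.95 and 7.98 TPM) on the opposite strand, and whether strand entered the counting is not given. The intracellular Slc2a8 had 4.73 and 3.42 TPM. Slc2a1, the carrier of basal glucose uptake in most cells, had 2.16 and 2.59 TPM. Slc2a4 was 49.2 times Slc2a1 in replicate 1 and 33.4 times in replicate 2, and 26.8 ± 6.72 times in the second quantification (SD, n = 2). Slc2a10 and Slc2a13, a proton-coupled inositol carrier, lay near 1 TPM. Slc2a3, the high-affinity carrier of neurons, had 0.530 and 0.190 TPM, and the liver carrier Slc2a2 had 2 counts in replicate 1 and none in replicate 2.

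The sodium-coupled Slc5 carriers were nearly absent. Of 13 members, 6 had no count in either library and 11 had at most 3 counts in each. Slc5a3, which imports inositol, stood at 1.48 and 1.65 TPM, and Slc5a6, which imports biotin and pantothenate, at 1.25 and 1.35 TPM. Slc5a3 overlaps Mrps6 on the same strand. Weighted by transcript level, 57.5% of Slc5a6 sequence matched other genes at 95% identity or more over at least 100 bases, overlapping genes included. Reads of both genes are therefore uncertain in their assignment. The intestinal and kidney glucose carriers Slc5a1 and Slc5a2 had 1 count and no count over both libraries.

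The lactate carriers held the highest member of all. Slc16a3, the carrier through which glycolytic fibres release lactate (ENSMUSG00000025161.16, chromosome 11, 120948480 to 120960868), stood at 160.3 TPM in replicate 1 and 148 TPM in replicate 2. It took 80.6 ± 1.90% of the Slc16 total (SD, n = 2). Slc16a1, the carrier used for lactate uptake by oxidative cells, had 9.21 and 10.2 TPM. The ratio of Slc16a3 to Slc16a1 was 17.4 in replicate 1 and 14.6 in replicate 2. Basigin (Bsg), the chaperone of both, had 224 and 221 TPM, which was 1.44 ± 0.0648 times Slc16a3 and 23.0 ± 1.87 times Slc16a1 (SD, n = 2 for both). The other chaperones Nptn (41.1 and 38.6 TPM) and Emb (5.65 and 6.01 TPM) were lower. Between the libraries the exact binomial test called 0 of these 3 chaperones, with 0 at an unadjusted p under 0.05. Over all genes it called 21.5%, so 0 of 3 says nothing particular about the chaperones.

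The Slc16 family also carries other cargo. Slc16a10, a carrier of aromatic amino acids, stood at 13.6 and 14.9 TPM and was second in the family. Slc16a6 had 4.94 and 6.80 TPM. Slc16a6 overlaps Arsg and Amz2, which lie on the opposite strand, and no source used here says whether strand entered the counting.

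The Slc38 carriers, which bring in small neutral amino acids such as glutamine and alanine, had 8 of 11 members at 1 TPM in both libraries and several abundant ones. Slc38a4 (ENSMUSG00000022464.14, chromosome 15, 96994820 to 97055956), known as an imprinted gene, stood at 82.7 and 76.4 TPM. Slc38a2, the carrier induced by amino acid shortage and by hyperosmotic stress (chromosome 15, 96687392 to 96699730), stood at 46.4 and 43.6 TPM. Slc38a4 was 1.78 and 1.75 times Slc38a2. Slc38a10 had 25.3 and 29.4 TPM. Slc38a3, which carries glutamine with a proton in exchange, had 25.8 and 18.1 TPM. Slc38a1, the close relative of Slc38a2, had 1.40 and 1.04 TPM, so Slc38a2 was 37.5 ± 6.23 times as high (SD, n = 2). The lysosomal arginine sensor Slc38a9 (2.78 and 2.02 TPM) and the lysosomal glutamine carrier Slc38a7 (2.52 and 2.10 TPM) were low.

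Exchangers and uniporters of amino acids were lower. Slc3a2, the heavy chain that takes the exchangers to the membrane, stood at 11.1 and 10.2 TPM, while Slc3a1, the heavy chain of kidney and gut, had 2 counts in each library. Slc7a8, a light chain for neutral amino acids, had 8.37 and 5.01 TPM. Slc7a5, the leucine exchanger of dividing cells, had 1.88 and 1.57 TPM, 0.269 ± 0.0628 times Slc7a8 (SD, n = 2). Slc7a5 and Slc7a6 were 0.162 ± 0.0104 and 0.235 ± 0.0211 times Slc3a2 (SD, n = 2 for both). The 6 light chains Slc7a5, Slc7a6, Slc7a7, Slc7a8, Slc7a10 and Slc7a11, grouped after their values were seen, summed to 1.36 times Slc3a2 in replicate 1 and 1.10 times in replicate 2. Their sum was 0.918 ± 0.261 times Slc3a2 in the second quantification (SD, n = 2), so which side is larger depends on the quantification.

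Slc7a2, a carrier of arginine and lysine that needs no heavy chain, was the highest Slc7 member with 19.01 and 17.97 TPM and took 54.0 ± 2.89% of the family (SD, n = 2). The related Slc7a1 had 2.00 and 2.29 TPM, 0.116 ± 0.0157 times Slc7a2 (SD, n = 2). All 3 Slc43 members were present. Slc43a2, a carrier of large neutral amino acids, had 13.9 and 13.4 TPM. Slc43a3, which carries purine bases, had 19.5 and 9.82 TPM, and Slc43a1, a second carrier of large neutral amino acids, had 7.27 and 2.70 TPM, so the libraries lay far apart for both. Among the Slc1 carriers, Slc1a5, a sodium-coupled exchanger for glutamine, had 12.2 and 9.32 TPM, 12.2 ± 4.06 times Slc1a4 (SD, n = 2). The glutamate carriers Slc1a1, Slc1a2 and Slc1a3 stayed below 1 TPM.

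The Slc6 family was split between a few present carriers and many at trace levels. Slc6a8, the creatine transporter (ENSMUSG00000019558.14, chromosome X, 73673150 to 73682502), stood at 26.4 and 28.8 TPM. Slc6a6, the taurine transporter, stood at 15.1 and 17.4 TPM. Slc6a8 was 1.75 and 1.66 times Slc6a6. The glycine carrier Slc6a9 had 1.80 and 2.45 TPM. Weighted by transcript level, 32.7% of its sequence matched other genes at 95% identity or more over at least 100 bases. Genes that overlap Slc6a9 were not left out of that match. Among them B4galt2 (2.93 and 2.42 TPM) lies on the opposite strand, so the level of Slc6a9 is uncertain. The other 18 of 21 Slc6 members, among them the carriers of dopamine (Slc6a3), noradrenaline (Slc6a2) and serotonin (Slc6a4), stayed below 1 TPM in both libraries. Gamt, the last enzyme of creatine synthesis, had 105 and 101.6 TPM. Gatm, the first enzyme, had 15.9 and 18.1 TPM, so the enzymes that make creatine were detected beside the carrier that imports it.

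Of the fatty acid carriers, Slc27a1 (ENSMUSG00000031808.7, chromosome 8, 71568882 to 71587302), the form of muscle and fat, stood at 22.9 and 15.7 TPM and took 77.9 ± 4.62% of the Slc27 total (SD, n = 2). Slc27a4 had 3.90 and 4.26 TPM. The ratio of Slc27a1 to Slc27a4 was 5.88 in replicate 1 and 3.67 in replicate 2. The liver forms Slc27a2 and Slc27a5 had 2 counts in each library and none.

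The tables also divide each gene among its annotated transcripts. Over the 40 members that averaged at least 1 TPM, the most abundant transcript was of the protein-coding class in all 40. Protein-coding transcripts took a median of 90.7% of the level, and 88.1% in the second quantification. The share was under 70% for 5 members. It was 32.0% for Slc38a9, 53.7% for Slc27a1, 66.7% for Slc6a6, 66.9% for Slc38a10 and 69.1% for Slc1a5. For Slc27a1, transcripts with a retained intron took 34.3%. Slc2a4 and Slc38a2 were each dominated by 1 transcript, 92.4 ± 1.19% on Slc2a4-201 and 96.4% on Slc38a2-201.

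The same top transcript was found by both quantifications for 29 members and another one for 11. Slc38a4 was among the 11. In the first quantification Slc38a4-201, from the first of the starts shown above, took 48.8 ± 2.32% and Slc38a4-205 0.647 ± 0.248% (SD, n = 2 for both). In the second, Slc38a4-201 took 7.18 ± 3.02% and Slc38a4-205 34.8 ± 3.77% (SD, n = 2 for both). Slc38a4-205 begins 36005 bases downstream of Slc38a4-201, near the last of the starts shown. At the level of the whole gene the second quantification gave 117 and 104 TPM. For Slc16a3 the top transcript was Slc16a3-201 in both, with 62.8 ± 0.639% and 83.6 ± 3.42% (SD, n = 2 for both). It begins 587 bases upstream of Slc16a3-202, whose start is the one shown and which took 11.9% and 1.30%.

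**Figure D3:**
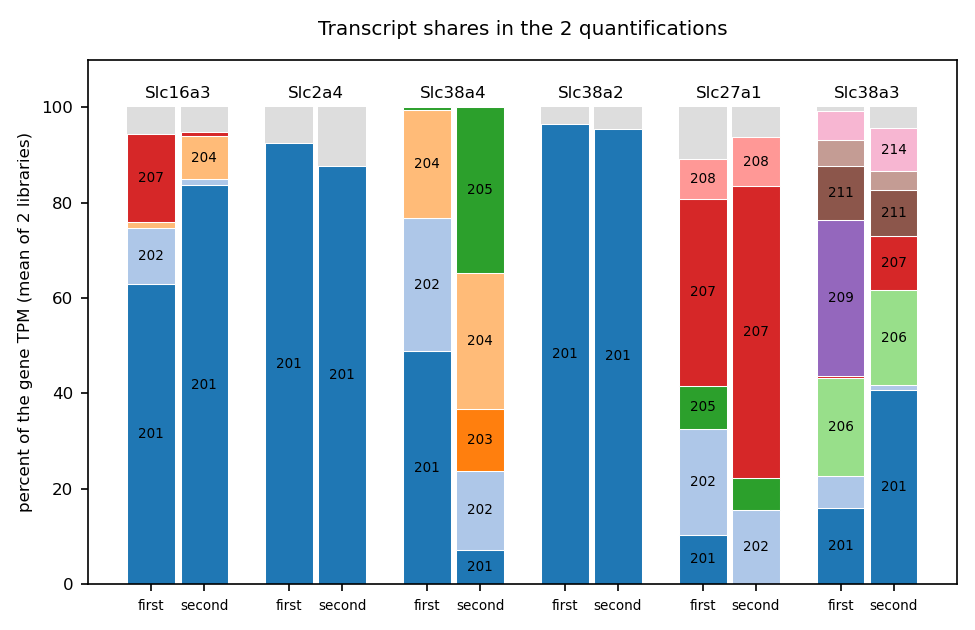
Percent of the gene level on each transcript (vertical axis, mean of 2 libraries) in the first and the second quantification, for 6 members. Colours mark transcripts within a gene, numbers are the last part of the transcript name, and grey is the sum of transcripts under 5% in both. The Slc2a4 and Slc38a2 columns are nearly filled by transcript 201, while the 2 Slc38a4 columns differ, with 48.8% against 7.18% on transcript 201.

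The quantifications also differ in level. The second was higher by a median of 0.43 and 0.44 on the log2 scale over 11051 coding genes that averaged at least 1 TPM, and by 0.40 and 0.36 over the 40 members. More than 2-fold apart in both libraries were 3 of 44 members at 1 TPM in either quantification (Slc38a6, Slc7a7 and Slc7a4), against 4.45% of 11614 coding genes. After the median was subtracted, an alternative chosen after seeing the data, only Slc38a6 remained, with log2 differences of 2.36 and 2.23. Slc38a6 stood at 2.49 and 1.83 TPM in the first quantification and at 17.2 and 11.6 TPM in the second. In the second, 76.7 ± 4.15% of its level lay on Slc38a6-208 (SD, n = 2), which took 1.22% in the first. Of the 3927 bases of that transcript, 85.0% matched transcripts of 44 other genes at 95% identity or more. The level of Slc38a6 is given as uncertain, and the part of these matches in the difference was not tested.

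**Figure D4:**
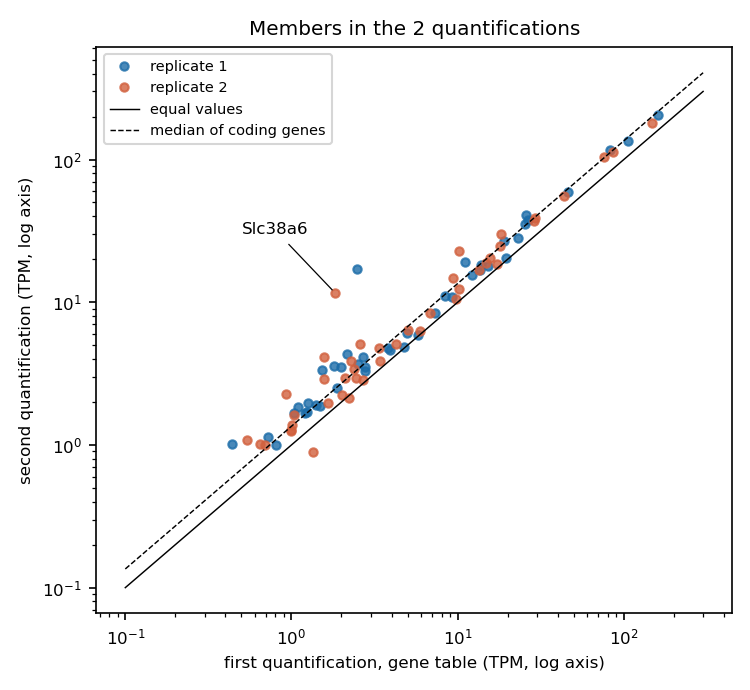
Level of members at 1 TPM in either quantification, first quantification on the horizontal log axis and second on the vertical log axis (TPM), 1 point per member and library. The solid line marks equal values and the dashed line the median of coding genes. Slc38a6 stands above both lines in both libraries, at 17.2 and 11.6 TPM in the second quantification.

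The libraries were then compared with exact binomial tests (two-sided) of rounded expected counts against their TMM-scaled sizes, over genes with at least 10 counts and with Benjamini-Hochberg adjustment at 0.05 over all genes tested. The test compares these 2 libraries, not conditions, and covers counting error only. In tissue RNA, fewer cells of a type and less RNA per cell cannot be told apart. Over all genes it called 21.5% of 17245, 10.6% higher in replicate 1 and 10.9% higher in replicate 2. Of the members 66 were tested and 39 had too few counts. It called 22 members, 33.3% of those tested, of which 13 were higher in replicate 1 and 9 in replicate 2, and 44 were not called. Scaled by the added ERCC RNAs instead, 33 members were called and all 33 were higher in replicate 1, as were 96.7% of the calls over all genes. That scaling moved the median of all genes to -0.30 on the log2 scale, so directions here are relative to the bulk of genes. The median log2 difference, replicate 2 minus replicate 1, was -0.11 over the members tested and -0.01 over all genes tested.

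Among genes with at least 50 counts, 7 of 50 members were called and over 1.5-fold apart (14.0%), against 5.01% of 13664 genes. Of these, 5 were higher in replicate 1, against 3.28% of all genes. Slc43a1 had 511 and 164 counts, a scaled ratio of replicate 2 to replicate 1 of 0.357 (95% counting interval 0.297 to 0.426; exact binomial test, adjusted p = 4.6e-33). Its neighbour Slc43a3 had a ratio of 0.573 (0.520 to 0.631; exact binomial test, adjusted p = 2.47e-29). Both carriers of the gene pair on chromosome 2 were thus lower in replicate 2. Slc7a8 had a ratio of 0.630 (0.569 to 0.699) and Slc38a3 one of 0.663 (0.613 to 0.718), with adjusted p = 6.65e-18 and 2.29e-23 by the exact binomial test. Slc2a3 had 61 and 20 counts and a ratio of 0.364 (0.208 to 0.612; exact binomial test, adjusted p = 0.000479).

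The members higher in replicate 2 by that measure were 2, against 1.73% of all genes. Slc1a2, a glutamate carrier, had 65 and 99 counts and a ratio of 1.69 (1.23 to 2.35; exact binomial test, adjusted p = 0.0069). Slc16a13, a lactate carrier, had 19 and 36 counts and a ratio of 2.11 (1.18 to 3.89; exact binomial test, adjusted p = 0.0459). Both rest on few counts. The call of Slc16a13 was lost in the second quantification (adjusted p = 0.333, exact binomial test), without a filter on low counts and with ERCC scaling, and that of Slc1a2 was lost with ERCC scaling.

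The other called members were less than 1.5-fold apart. Slc2a4 had a ratio of 0.826 (0.799 to 0.854; exact binomial test, adjusted p = 1.21e-27) and Slc27a1 of 0.726 (0.672 to 0.785; exact binomial test, adjusted p = 8.38e-15), both higher in replicate 1. Slc16a3 (0.943) and Slc38a4 (0.906) were called in the same direction, as were Slc43a2 (0.842), Slc38a9 (0.708) and Slc38a6 (0.691). Higher in replicate 2 were Slc6a8 (1.17), Slc38a10 (1.09), Slc16a10 (1.21), Slc16a1 (1.15), Slc16a6 (1.30), Slc2a1 (1.38) and Slc7a1 (1.26). With ERCC scaling Slc6a8, Slc38a10, Slc16a10 and Slc16a1 turned to the other direction, where only Slc38a10 was still called, and Slc16a6, Slc2a1 and Slc7a1 kept their direction but were no longer called. Slc2a1 was not called in the second quantification either (adjusted p = 0.104, exact binomial test), and Slc38a10 and Slc38a6 were not called when genes with few counts were kept. Slc38a2 (0.972), Slc3a2 (0.993), Slc6a6 (1.01) and Slc7a2 (1.05) were not called. For 8 of the 22 called members the quantifier's own intervals of the 2 libraries also lay apart: Slc16a3, Slc2a4, Slc38a3, Slc27a1, Slc43a3, Slc7a8, Slc16a6 and Slc43a1. They lay apart as well for Slc38a2 (44.4 to 46.5 and 41.6 to 43.7 TPM), which was not called. These intervals are of TPM without TMM scaling, so their separation does not bear out a scaled difference. Slc5a3 was called higher in replicate 1 on counts (0.797) while its TPM was higher in replicate 2 (1.48 and 1.65), so its direction depends on the measure.

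**Figure D5:**
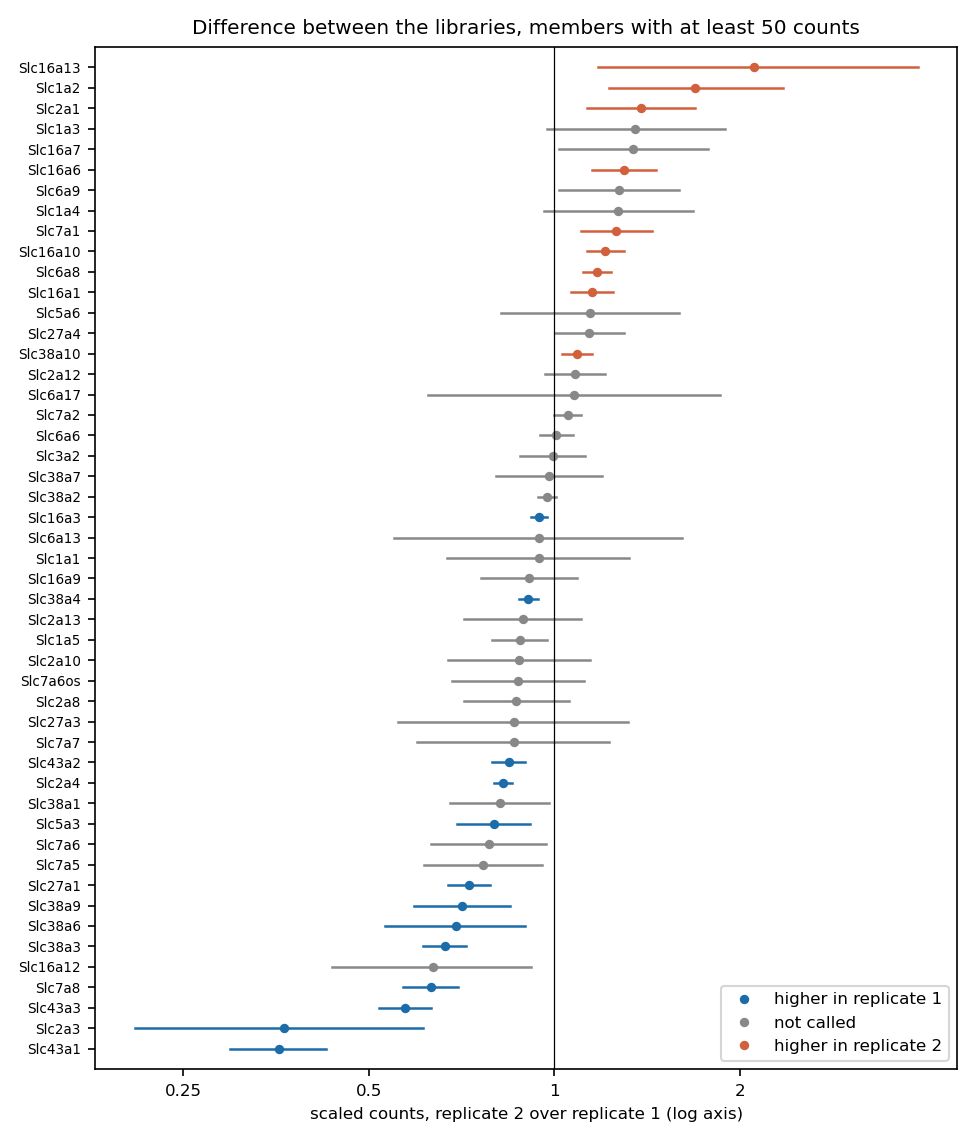
Ratio of TMM-scaled counts, replicate 2 over replicate 1 (horizontal log axis), for members with at least 50 counts, ordered by ratio, with exact 95% counting intervals as bars. Blue marks members called higher in replicate 1, orange those called higher in replicate 2 and grey those not called. Slc43a1 lies at the low end with a ratio of 0.357 and Slc16a13 at the high end with 2.11.

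Markers of other cell types differed between the libraries as well. Over all genes tested, 10.6% were called higher in replicate 1 and 10.9% higher in replicate 2. Summed levels in replicate 1 and replicate 2 were 1851 and 1348 TPM for fibroblasts (4 of 5 markers called higher in replicate 1) and 156 and 132 TPM for endothelium (4 of 5 higher in replicate 1). They were 1392 and 1958 TPM for erythroid cells (5 of 5 higher in replicate 2), 79.3 and 117 TPM for Schwann cells (3 of 5 higher in replicate 2), and 2.56 and 17.8 TPM for adipocytes (5 of 5 higher in replicate 2). All 5 muscle fibre markers were called higher in replicate 2, but only at scaled ratios from 1.06 (Myh4) to 1.14 (Ckm). Their counts are high, and the test calls small differences at such counts. Their log2 differences were 0.081 (Myh4) to 0.19 (Ckm). ERCC scaling moved the median of all genes further than that, from -0.01 to -0.30, so the direction of these markers depends on the scaling. Macrophage markers (1 of 5 higher in replicate 1, 28.3 TPM in replicate 2) and smooth muscle markers (377 and 368 TPM, 1 of 5 called in each direction) differed less. Of the fibroblast sums, Col1a1 alone held 1597 and 1118 TPM. Scaled ratios of the fibroblast markers were 0.728 (Col1a1), 0.786 (Pdgfra), 0.883 (Lum), 0.957 (Dcn) and 0.978 (Dpt, not called). The part of these cell types in the differences of the transporters was not tested.

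The genes that act with the transporters were counted from lists chosen by function. Each count stands against the 10.6% and 10.9% of all genes tested that were called higher in replicate 1 and replicate 2. Calls grow more frequent with counts: 21.5% of genes with at least 10 counts were called and 26.7% of those with at least 50. Directions are relative to the bulk of genes, and with ERCC scaling 96.7% of the calls over all genes were higher in replicate 1. Of 13 genes of Slc2a4 traffic, which include some that hold it inside the cell, all were above 1 TPM, 4 were higher in replicate 1, 1 was higher in replicate 2 and 8 were not called. The highest were the vesicle GTPase Rab10 (96.0 and 96.7 TPM), Rac1 (88.7 and 82.7 TPM) and the kinase Akt2 (51.4 and 55.1 TPM). Of 7 genes that restrain or drive glucose uptake or sense sugar, 3 were higher in replicate 1 and 4 were not called (all genes, 10.6% higher in replicate 1). Txnip, which pulls glucose carriers from the membrane, had 207 and 109 TPM and a scaled ratio of 0.552. Hexokinase Hk2 (56.2 and 50.3 TPM) was not called, and the sugar-sensing factor Mlxip (27.1 and 23.5 TPM) was higher in replicate 1. Of 6 genes that control the removal of carriers, 2 were higher in replicate 1 and 1 in replicate 2, led by the ubiquitin ligase Nedd4 (175 and 159 TPM), the kinase Sgk1 (148 and 119 TPM) and the ligase Wwp1 (37.1 and 41.5 TPM).

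Of 8 partners of fatty acid uptake, 6 were higher in replicate 1 and 2 were not called. Over all genes tested 10.6% were higher in replicate 1. Most of these partners have high counts, such as 12222 and 8906 for Fabp3, at which the test calls small differences. Fabp3, the fatty acid binding protein of muscle, had 527 and 411 TPM, Cd36, the surface receptor, 212 and 140 TPM, and Got2 179 and 173 TPM. Of these Fabp3 (0.810) and Cd36 (0.693) were called and Got2 (1.01) was not. Slc27a1 (0.726) had the same direction as Cd36, while Slc27a4 (1.14) lay on the other side of 1 and was not called. Of 6 creatine and carnitine genes, 1 was higher in replicate 1 and 2 in replicate 2: the mitochondrial carnitine carrier Slc25a20 (38.3 and 31.0 TPM), and Ckm and Gatm.

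Of 10 amino acid sensing genes, 3 were higher in replicate 1, 2 in replicate 2 and 5 were not called. Over all genes 21.5% were called in either direction. The 3 include Slc38a9 (0.708), a member already counted among the transporters above. Rragd (37.96 and 38.8 TPM), Castor2 (18.2 and 13.6 TPM) and Sesn3 (14.1 and 14.9 TPM) were the highest. Of 10 genes of the response to amino acid shortage, 3 were higher in replicate 1 and 7 were not called, beside the same 21.5% over all genes. The transcription factor Atf4 stood at 45.9 and 43.5 TPM and was not called, while Eif4ebp1 (45.9 and 32.5 TPM) and Ddit4, an inhibitor of mTOR signalling (31.9 and 13.7 TPM), were higher in replicate 1. Amino acid carriers of other families were low. Of 5 the exact binomial test called 0, with 1 at an unadjusted p under 0.05, beside 21.5% called over all genes. They were led by Slc15a4 (3.76 and 3.42 TPM), Slc36a4 (2.80 and 2.47 TPM) and Slc36a1 (2.57 and 1.55 TPM).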

How the data were processed

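Total RNA of 2 gastrocnemius libraries was quantified by the authors against assembly mm10 with annotation M21, per the file headers and labels. Aligner and quantifier names were not given in the sources used here. Each deposited gene table holds expected counts (estimated reads, not normalised), TPM as the authors scaled it, and bounds of the quantifier's interval around the TPM signal. It is called the first quantification, and a second deposited table, made from the reads and an index, was summed per gene. Reads were not separated by allele.

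Counts were rounded for the exact binomial test (scipy 1.17.1). Library sizes were scaled by TMM in edgeR 4.0.16 over 14965 genes kept by filterByExpr. Scalings by DESeq2 1.42.0 size factors and by ERCC totals, other filters and the second quantification were alternatives. On simulated data for 16947 genes, the test recovered 76.0% of 1.5-fold and 92.0% of 2-fold changes in this comparison. Changes were placed only in genes with at least 50 expected counts, and counting error was the only simulated spread. The rates therefore do not cover genes with fewer counts or the spread between samples. Transcripts were compared with blastn 2.17.0. Promoter windows come from RefSeq tables.

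The member rule uses symbols and transcript classes only, but it, the lists, pairs and tests were chosen with earlier results of these data known. The text names members averaging at least 5 TPM, the 2 highest of each family, called members over 1.5-fold apart with at least 50 counts, members over 2-fold apart between quantifications, members of pairs, and the 3 highest of each list. Other named genes were chosen after their values were seen, as were the sequences shown. Stx4 and Slc66a1 were listed but matched no entry under those symbols. One member named by this rule is left out of the text and figures and is not reported here.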

Additional observations from a re-analysis of the deposited data

How the results depend on the processing

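The 2 libraries give no estimate of variation between animals, intervals cover counting error only, and members below about 10 counts could not be tested. The summed transporter level was 871 ± 75.1 TPM in the second quantification. Leading shares there moved for Slc38a4 (42.1%), Slc3a2 (99.8%), Slc6a8 (60.8%) and Slc5a3 (57.6%), and Slc43a2 (47.2%) stood above Slc43a3 (39.1%). As shares of expected counts, which favour long transcripts, the members that led by mean TPM had 68.8% for Slc16a3, 83.1% for Slc2a4, 36.0% for Slc38a4, 64.6% for Slc7a2, 99.6% for Slc3a2, 27.6% for Slc43a3, 68.2% for Slc1a5, 54.2% for Slc6a8, 70.4% for Slc27a1 and 84.5% for Slc5a3, and on that measure Slc38a2 (37.3%) and Slc43a2 (62.9%) led their families instead. Across median-ratio scaling, other filters, the second quantification and TMM over genes with at least 10 counts, an alternative chosen after seeing the data, 19 to 25 members were called. With ERCC scaling 33 members were higher in replicate 1 and 0 in replicate 2 by the exact binomial test, and the log2 difference reversed for Slc6a8 (-0.064), Slc38a10 (-0.17), Slc16a10 (-0.020) and Slc16a1 (-0.092).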

Other observations

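Several members lie next to each other on GRCm38 at unequal levels. On chromosome 15, Slc38a1, Slc38a2 and Slc38a4 follow each other on the minus strand, with 44.5 kb between the first pair and 295.1 kb between the second, at means of 1.22, 45.0 and 79.6 TPM. On chromosome 11, the highest sugar carrier Slc2a4 (96.4 TPM) lies 264.6 kb from the Slc16 family genes Slc16a11 (0.085 TPM) and Slc16a13 (0.605 TPM), which are 372 bases apart. On chromosome 2, Slc43a1 and Slc43a3 lie 72985 bases apart on the plus strand, and both were higher in replicate 1. Of the 40 members averaging at least 1 TPM, 19 overlap another annotated gene, 7 of them 1 that itself averages at least 1 TPM. These 7 were Slc16a6, Slc2a12, Slc6a9, Slc7a5, Slc5a3, Slc7a7 and Slc5a6, and their levels carry that uncertainty.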
